A study of Mus musculus with 6 samples.

Results

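R-spondins are secreted proteins that raise the sensitivity of cells to Wnt ligands. They bind the receptors Lgr4, Lgr5 and Lgr6 together with the membrane ubiquitin ligases Znrf3 and Rnf43, and the ligases, which otherwise remove Frizzled and Lrp6 Wnt receptors from the cell surface, are then cleared themselves. Rnf43, Znrf3 and Lgr5 are also known as Wnt target genes in intestinal epithelium, and Rspo3 is known as a product of stromal cells there. The genes described are the 4 R-spondins Rspo1 to Rspo4, the 3 receptors Lgr4 to Lgr6 and the 2 ligases Znrf3 and Rnf43. They were picked by name, 9 of the 39495 loci in the deposited files, and each name matched 1 locus that carries no other gene. The group was proposed with an earlier finding of these data in view, a DESeq2 call of Rspo3 as higher in knockout cells. The genotype differences of all 9 genes are therefore given as a description, and no test of them is used as support.

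RNA was sequenced from cultures of mouse embryonic fibroblasts of the C57BL/6 background, 3 libraries from STC1+/+ WT cells and 3 from STC1-/- KO cells, grown in the same medium of DMEM with calf serum and antibiotics. Stc1 encodes the secreted glycoprotein stanniocalcin-1. The sources used here do not give the age of the embryos, how the allele was disrupted, or whether the 3 libraries of each genotype are separate cultures or embryos. Any p-value therefore measures the spread between these libraries, which may be technical. The libraries held 21882092 to 71488701 estimated fragments, knockout replicate 1 being the shallowest and wild-type replicate 1 the deepest. Stc1, the disrupted gene, was counted with 2245, 291 and 368 fragments in wild-type and with 6, 0 and 0 in knockout libraries. Fibroblast genes such as Col1a1 were abundant in all libraries (829 to 12000 CPM, counts scaled to a common library size), but the summed level of 10 fibroblast markers was higher in every wild-type library (11600, 31500 and 12500 CPM) than in any knockout library (5720, 9370 and 9030 CPM). Most of this sum is Col1a1, Col1a2, Col3a1 and Vim. Of the 10 markers, 4 did not overlap between the genotypes, beside 10.6% of all genes tested, and edgeR called 0. The fold changes of 8 markers were negative, with a list median of -0.86 on the log2 scale. Those of Pdgfra (0.06) and Dcn (1.14) were positive. Macrophage content differed widely: the summed level of 14 macrophage markers was 395, 1500 and 10900 CPM in the wild-type and 1200, 469 and 504 CPM in the knockout libraries, and none of the 14 was at 0 in all libraries. All 13 that edgeR tested had negative fold changes, with a median of -3.63 on the log2 scale. Their groups all overlapped, and edgeR called 0. DESeq2 called 5 of the 14 lower in the knockout, where it called 0.172% of all its genes lower. C1qa, a complement gene that defines resident macrophages, had 0.255, 90.5 and 810 CPM in the wild-type and 2.91, 0.188 and 0.377 CPM in the knockout libraries. Not all markers ranked the libraries in this way. Emr1, at 168 against 74.7 CPM, Cd68, Ptprc, Tyrobp, Fcer1g and Itgam were higher in knockout replicate 1 than in wild-type replicate 2. The other markers of the list were lower in knockout replicate 1 than in wild-type replicate 2. In such bulk samples, fewer cells of a type and less RNA per cell cannot be told apart.

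The 9 loci lie on 6 chromosomes (mm10 coordinates of the files). Rspo1 lies at chr4:124986430-125009099, Rspo2 at chr15:43020811-43170853, Rspo3 at chr10:29453109-29535867 and Rspo4 at chr2:151842927-151876663. Lgr4 lies at chr2:109917647-110014257, Lgr5 at chr10:115450311-115587780 and Lgr6 at chr1:134983309-135105276. Znrf3 lies at chr11:5276324-5444847 and Rnf43 at chr11:87662664-87735539. All 9 are protein-coding in GENCODE M21. The longest coding transcripts have 5 or 6 exons in the R-spondins, 18 in each LGR receptor, 9 in Znrf3 and 10 in Rnf43. The annotation places antisense genes over Rspo1 and Rspo3 (Gm12930, Gm48159) and over Rspo4 (Rspo4os), and the coding gene A930009A15Rik on the opposite strand over Lgr5. Gm20276 lies on the same strand as Rspo3, and Gm25968 and 1110028F11Rik overlap Rnf43, the latter on the same strand. The library kit keeps strand, but the sources used here do not say whether the counting used it, so fragments from such a partner cannot be told apart, and those from a partner on the same strand could not be in any case. Gm12930 had at most 1 fragment in any library and A930009A15Rik and 1110028F11Rik had 0, and the other overlapping genes have no locus of that name.

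The coding sequences show how alike the relatives are in that part of their exons. Non-coding exon bases were not compared, and Rspo2 has 729 coding bases beside 5112 exon bases in all. How fragments were assigned between relatives was not tested. Aligned coding bases were 60.0% to 63.4% identical between R-spondins, 59.6% to 64.9% between LGR receptors and 63.8% between Znrf3 and Rnf43. The longest identical run in any of the 10 pairs was 20 bases, which Znrf3 and Rnf43 share. Shown are the pair with the longest run in each class, in GENCODE M21 coding sequence, 5′ to 3′ on the strand of the gene, with the shared run in capitals and 12 flanking bases on each side. The Rspo2 and Rspo3 windows and the Lgr5 and Lgr6 windows span an intron, and positions count from the start codon.
Rspo2, coding bases 400 to 437, chr15:43075956-43078126, minus strand: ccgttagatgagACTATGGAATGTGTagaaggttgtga
Rspo3, coding bases 403 to 440, chr10:29500126-29504614, minus strand: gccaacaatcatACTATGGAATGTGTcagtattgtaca
Lgr5, coding bases 202 to 243, chr10:115520647-115587292, minus strand: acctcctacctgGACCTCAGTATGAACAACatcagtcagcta
Lgr6, coding bases 202 to 243, chr1:135075268-135104939, minus strand: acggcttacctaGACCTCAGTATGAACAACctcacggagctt
Znrf3, coding bases 1726 to 1769, chr11:5281743-5281786, minus strand: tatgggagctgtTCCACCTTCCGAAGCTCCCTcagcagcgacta
Rnf43, coding bases 1471 to 1514, chr11:87731545-87731588, plus strand: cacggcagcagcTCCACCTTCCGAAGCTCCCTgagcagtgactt
No pair of relatives thus shares an identical coding stretch of more than 20 bases.

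The order of the levels was examined in FPKM, the deposited fragments scaled for transcript length and sequencing depth, since levels of different genes can be compared only per length. Over the 6 libraries Rspo3 had the highest mean level of the 9 genes, 7.4 ± 3.6 FPKM (SD), which rests on the knockout libraries. In wild-type cells Lgr4 was higher, at 6.52 ± 2.90 against 4.46 ± 0.583 FPKM for Rspo3, and above it in all 3 libraries. Over all 6 libraries Lgr4 followed at 5.17 ± 2.37 FPKM, Rspo2 at 2.71 ± 1.54, Lgr6 at 1.63 ± 0.878 and Znrf3 at 1.47 ± 0.261. Lgr5 averaged 0.688 ± 1.02 FPKM, Rspo4 0.387 ± 0.362, Rnf43 0.344 ± 0.147 and Rspo1 0.227 ± 0.171. The fibroblast cultures of both genotypes thus held RNA of a ligand, a receptor and a ligase of the pathway, which these bulk libraries do not assign to a cell type. Znrf3 was the steadiest member, its highest library lying at 1.54 times its lowest, while Lgr5, Rspo4 and Rspo1 varied 36.1-, 59.3- and 22.1-fold.

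Neighbours in this order were compared within libraries by a two-sided exact sign-flip permutation test of log2(FPKM + 0.1) differences, 8 pairs in all. Lgr4 lay above Rspo2 in 6 of 6 libraries, by 1.06 ± 0.83 on the log2 scale (exact p = 0.0312, the smallest that 6 libraries allow, and 0.25 after Benjamini-Hochberg adjustment over the pairs). Znrf3 lay above Lgr5 in 5 of 6 libraries, by 1.72 ± 1.27 (exact permutation p = 0.0625, adjusted p = 0.25). Rspo3 lay above Lgr4 in 3 of 6 libraries, and those were the 3 knockout libraries. No pair passed after adjustment, and with 8 pairs at this number of libraries a single pair could not. For Lgr6 against Znrf3 and Rspo4 against Rnf43 the mean log2 difference was -0.01 and -0.23, against the order of the mean FPKM.

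**Figure D1:**
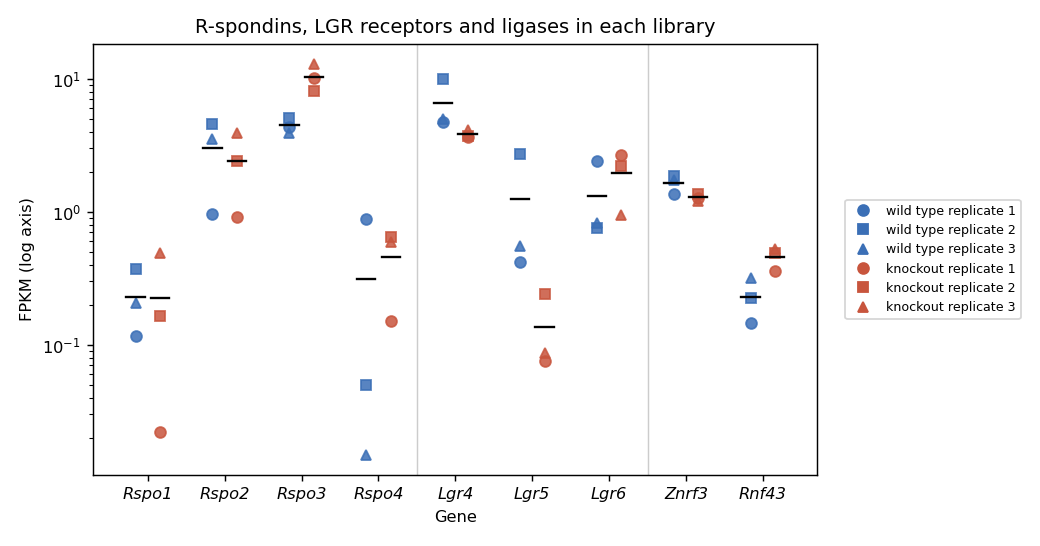
Deposited FPKM (log axis) of the 9 genes in each of the 6 libraries, blue for wild type and red for knockout, with the marker shape giving the replicate and black bars the group means of 3 libraries. For Rspo3 the knockout libraries sit between 8.02 and 13.0 FPKM and the wild-type libraries between 3.92 and 5.08 FPKM, while for Lgr5 every knockout library lies below every wild-type library.

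Among the ligands, Rspo3 differed between the genotypes with the smallest spread. Rspo3 had 914, 615 and 535 fragments in wild-type replicates 1 to 3, or 12.9, 14.4 and 11.1 CPM. Knockout replicates 1 to 3 had 611, 843 and 1626 fragments, or 28.7, 22.6 and 36.1 CPM. All 3 knockout libraries were above all 3 wild-type libraries, and knockout replicate 3 was the highest. The group means were 29.1 ± 6.74 against 12.8 ± 1.67 CPM, and the fitted difference was 1.19 on the log2 scale (SE 0.23), a 2.27-fold higher level in knockout cells. The authors' deposited table gives mean levels of 10.3 FPKM in knockout and 4.46 FPKM in wild-type cells, a log2 fold change of 1.21 and p = 0.0831, with q = 1. That table holds 5 of the 9 genes, the 4 R-spondins and Lgr4, each with q = 1. Of all its 29368 rows, 17 had q under 0.05.

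Rspo2, a relative known for its role in limb and lung development in mouse, had overlapping groups. It had 3.81, 17.1 and 13.4 CPM in the wild-type libraries and 3.43, 8.98 and 14.4 CPM in the knockout libraries. Replicate 1 of each genotype was low and the others were higher, so the spread within a genotype exceeded the difference between the means (log2 fold change -0.35, SE 0.71). Knockout replicate 1 was the shallowest library and wild-type replicate 1 the deepest, and the part of depth was not tested.

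Rspo4, known in human for its role in nail formation, was set by single libraries. It had 251 fragments, or 3.55 CPM, in wild-type replicate 1, but 8 and 3 fragments in wild-type replicates 2 and 3, or 0.187 CPM and 0.0621 CPM. The exact 95% Poisson interval for the last value is 0.0128 to 0.181 CPM, and such intervals cover counting error only. The knockout libraries had 0.47, 2.25 and 2.13 CPM, between the highest and the lowest wild-type values. The log2 fold change of 0.35 (SE 1.42) became 3.70 without wild-type replicate 1, the library with the least macrophage RNA. The part of macrophage content in this was not tested.

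Rspo1, known for its role in ovary development, was near the limit of detection. Its counts were 13, 24 and 21 fragments in wild-type and 1, 10 and 29 in knockout libraries, or 0.184, 0.562 and 0.435 CPM against 0.047, 0.268 and 0.643 CPM. The single fragment in knockout replicate 1 allows 0.00119 to 0.262 CPM (exact 95% Poisson interval). The interval of knockout replicate 3, 0.431 to 0.924 CPM, lay above it, so these libraries of 1 genotype differed by more than counting error. The groups overlapped (log2 fold change -0.22, SE 0.84), and the part of depth was not tested.

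Taking the ligands as a set, Rspo3 held most of the R-spondin RNA. Its share of the summed R-spondin FPKM was 69.1%, 50.6% and 51.0% in the wild-type and 90.3%, 71.5% and 72.3% in the knockout libraries. Rspo2 held 15.2%, 45.2% and 46.1% in wild-type and 8.14%, 21.3% and 21.7% in knockout libraries. The shares of Rspo3 did not overlap between genotypes, while those of Rspo2 did, through wild-type replicate 1. The summed level was 6.33, 10.0 and 7.69 FPKM in the wild-type and 11.1, 11.2 and 17.9 FPKM in the knockout libraries.

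**Figure D2:**
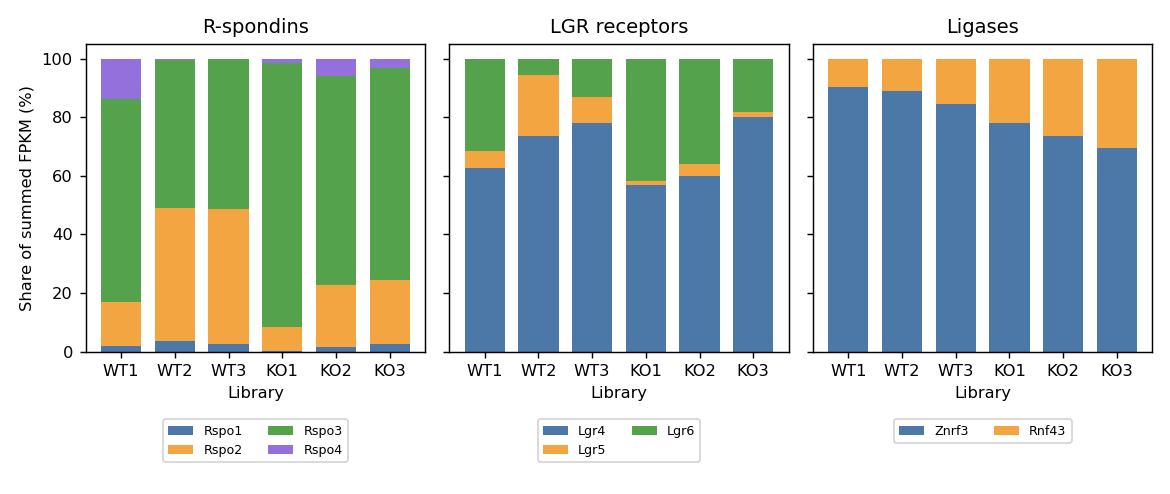
Share (%) of the summed FPKM of the R-spondins, the LGR receptors and the ligases held by each gene in wild-type (WT) and knockout (KO) libraries, 1 bar per library. Rspo3 fills 50.6% to 69.1% of the ligand bar in wild-type and 71.5% to 90.3% in knockout libraries, and Rnf43 takes 9.72% to 15.6% and 21.8% to 30.3% of the ligase bar.

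Among the receptors, Lgr5 showed the widest gap between the genotypes. Lgr5, a marker of epithelial stem cells in intestine and hair follicle, had 176, 648 and 123 fragments (2.49, 15.2 and 2.55 CPM) in wild-type replicates 1 to 3. The knockout libraries had 4, 33 and 12 fragments, or 0.188, 0.885 and 0.266 CPM, and the lowest of these has an exact 95% Poisson interval of 0.0512 to 0.481 CPM. Every knockout library was below every wild-type library, and wild-type replicate 2 stood apart above all others. The log2 fold change was -3.88 (SE 1.05), and -2.45 without wild-type replicate 2. Wild-type replicate 2 also held the highest levels of several genes of other cell types: 303 CPM of the smooth muscle gene Cnn1 against 41.8 to 74.9 CPM elsewhere, and 8.83 CPM of the cartilage gene Col2a1 against 0.107 to 2.01 CPM. Of the other cartilage markers, Acan and Col9a1 were highest there too, whereas Sox9 and Hapln1 were highest in wild-type replicate 1 and Matn1 in wild-type replicate 3. Of the epithelial markers, Epcam (0.562 CPM), Cdh1 (2.53 CPM) and Krt8 (2.23 CPM) were highest there, whereas Krt19 and Krt5 were highest in wild-type replicate 1 and Grhl2 in knockout replicate 1. The summed fibroblast markers (31500 CPM) peaked in the same library. The part of these genes in the Lgr5 level was not tested. The summed level of the 10 epithelial markers was 33.1, 31.8 and 11.2 CPM in wild-type and 32.0, 31.1 and 15.7 CPM in knockout libraries, most of it Krt19, and it overlapped between the genotypes.

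Lgr4, the most broadly expressed receptor of the class, made up most of the receptor RNA. It had 28.9, 53.2 and 27.3 CPM in the wild-type and 21.2, 22.0 and 23.3 CPM in the knockout libraries. The groups did not overlap, the knockout libraries lay close together, and wild-type replicate 2 was again the highest. The means were 22.2 ± 1.06 CPM for knockout against 36.5 ± 14.5 CPM for wild type. The log2 fold change was -0.72 (SE 0.29), and -0.32 without wild-type replicate 2. The part of the lower summed fibroblast marker level of the knockout libraries, which not all of those markers share, was not tested.

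Lgr6, a receptor known from skin and its appendages, had 15.6, 3.02 and 4.68 CPM in the wild-type and 10.8, 10.6 and 5.19 CPM in the knockout libraries. Wild-type replicate 1 held the highest value and the other wild-type libraries the lowest, so the groups overlapped (log2 fold change 0.19, SE 0.67; 1.21 without wild-type replicate 1). The files mark the Lgr6 estimate in wild-type replicate 1 as FAIL. Its FPKM per 100 scaled fragments was 0.377 there and 0.415 to 0.593 in the other libraries, whereas for Rspo3, a locus with 1 transcript, it was 0.833 or 0.834 in every library. Lgr5, with 11 transcripts, had 0.417, 0.427 and 0.512 in the wild-type and 0.962, 0.646 and 0.761 in the knockout libraries. Fragments were thus converted to FPKM differently between libraries for Lgr6, with 8 transcripts, and for Lgr5, which enters the shares and ratios below. Rspo1, Rspo4 and Rnf43 varied in this value too. The part of the division of fragments among transcripts was not tested.

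As shares of receptor FPKM, Lgr4 held 62.8%, 73.8% and 78.2% in the wild-type and 56.9%, 60.1% and 80.0% in the knockout libraries, which overlap. Lgr5 held 5.58%, 20.5% and 8.75% in the wild-type libraries, above the 1.20%, 3.95% and 1.69% in the knockout libraries. Lgr6 took the rest, from 5.67% in wild-type replicate 2 to 41.9% in knockout replicate 1.

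The ligases Znrf3 and Rnf43 had fold changes of opposite sign. Znrf3 had 10.5, 15.0 and 13.2 CPM in the wild-type and 10.3, 10.2 and 9.27 CPM in the knockout libraries. The knockout libraries were all lower in CPM, but the highest of them and the lowest wild-type library differed little, and in FPKM the groups overlapped at 1.37 in knockout replicate 2 and 1.36 in wild-type replicate 1. The log2 fold change was -0.38 (SE 0.20). Rnf43 had 42, 30 and 49 fragments in the wild-type and 27, 63 and 103 in the knockout libraries, or 0.595, 0.703 and 1.01 CPM against 1.27, 1.69 and 2.28 CPM. All knockout libraries were above all wild-type libraries, with a log2 fold change of 1.19 (SE 0.39). Rnf43 held 9.72%, 10.9% and 15.6% of the ligase FPKM in the wild-type and 21.8%, 26.3% and 30.3% in the knockout libraries, and the summed ligase level was 1.51 to 2.08 FPKM in wild-type and 1.63 to 1.86 FPKM in knockout libraries.

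**Figure D3:**
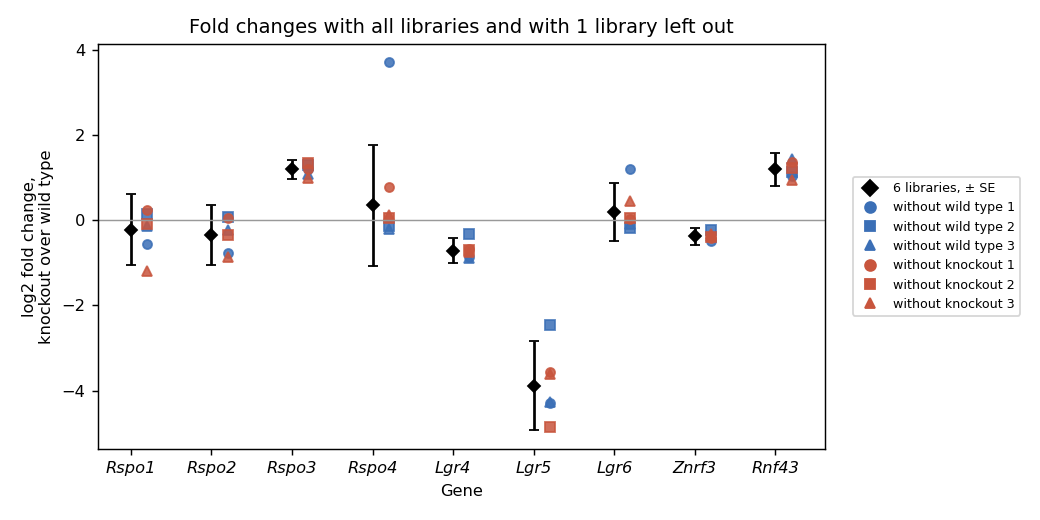
Fitted log2 fold change (knockout over wild type) of each gene, as black diamonds with standard errors for all 6 libraries and as coloured points for fits that leave out 1 library. Rspo3 stays between 1.0 and 1.35 and Rnf43 between 0.94 and 1.43, Lgr5 moves between -4.85 and -2.45, and the points of Rspo1, Rspo2, Rspo4 and Lgr6 fall on both sides of 0.

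Ratios within a library do not depend on how the libraries were scaled to each other. The FPKM ratio of Rspo3 to Lgr4 was 0.922, 0.515 and 0.792 in the wild-type and 2.78, 2.17 and 3.14 in the knockout libraries. Rspo3 was thus below Lgr4, the receptor with the most RNA, in every wild-type library and above it in every knockout library. This ratio restates the differences of the 2 genes, and the Rspo3 difference put the group forward, so nothing further is read from it. The ratio of Znrf3 to Rnf43 was 9.29, 8.21 and 5.40 in the wild-type and 3.59, 2.80 and 2.30 in the knockout libraries, without overlap. The ratio of Lgr4 to Lgr5 was 11.3, 3.60 and 8.93 in the wild-type and 47.6, 15.2 and 47.3 in the knockout libraries, also without overlap. The ratio of Rspo3 to Rspo2 overlapped, at 4.53, 1.12 and 1.11 in wild-type and 11.1, 3.36 and 3.33 in knockout libraries. That of Lgr4 to Lgr6 overlapped too, at 1.99, 13.0 and 6.00 in wild-type and 1.36, 1.67 and 4.36 in knockout libraries. How often ratios of other gene pairs separate the genotypes was not examined.

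**Figure D4:**
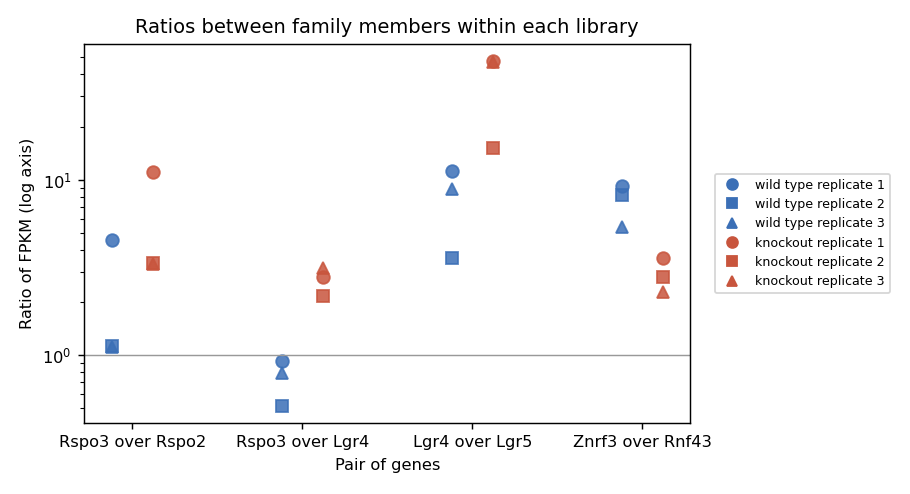
Ratio of FPKM (log axis) between pairs of genes within each library, blue for wild type and red for knockout, with 1 point per library and a line at equal levels. The Rspo3 to Lgr4 ratio is 0.515 to 0.922 in wild-type and 2.17 to 3.14 in knockout libraries, and the Znrf3 to Rnf43 ratio is 5.40 to 9.29 and 2.30 to 3.59.

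Counted over the group, 2 of the 9 genes (Rspo3 and Rnf43) had knockout libraries all above the wild-type libraries in CPM, and 3 (Lgr4, Lgr5 and Znrf3) all below. Of all 15673 genes tested, 5.18% lay all above and 5.44% all below, 10.6% in all. Because the genotype contrast entered the choice of the group, nothing is read from the difference. All 9 genes passed the filter on low counts, 4 with positive and 5 with negative fold changes, with a median of -0.22 beside -0.05 over all genes tested. edgeR's quasi-likelihood test called 0 of the 9 at an adjusted p under 0.05, and it called 0% of all genes in either direction. Stc1, the disrupted gene, was not called by edgeR either (adjusted p = 0.763), while DESeq2 called it (adjusted p = 3.86e-05). Of the 9 genes, 4 had an unadjusted edgeR p under 0.05, as did 3.87% of all genes. DESeq2 called 2, Rspo3 (higher, adjusted p = 0.00929) and Lgr5 (lower, adjusted p = 0.0163), where 0.156% of its 18613 genes were called higher and 0.172% lower. It gave no p-value for Rspo4. The Rspo3 call, which put the group forward, was lost without knockout replicate 1 (DESeq2 adjusted p = 0.142) and without knockout replicate 3 (0.0911), and without the other libraries the adjusted p was 0.00222 to 0.0325. The Lgr5 call was lost without wild-type replicate 2 (DESeq2 adjusted p = 0.302) and also without replicate 1 (0.159) or 3 (0.269) of the knockout, and without wild-type replicate 1 Rspo4 was called as well, in a fit that called 11.6% of all genes. Without the 3 libraries richest in macrophage RNA (replicates 2 and 3 of the wild type, 1 of the knockout), the Rspo3 log2 fold change was 1.18 and that of Rnf43 1.74. In the same fit Lgr5 stood at -2.13, Lgr4 at -0.35 and Znrf3 at -0.11, while the other 4 genes changed sign: Rspo1 stood at 1.31, Rspo2 at 1.62 (SE 0.42), Rspo4 at -0.70 and Lgr6 at -0.98. That fit assumes that its lone wild-type library varies as the knockout libraries do.

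The remaining genes of the pathway were examined on 8 lists, with averages given as mean ± SD of 3 libraries, knockout before wild type. An unadjusted edgeR p under 0.05 was reached by 3 of the 20 tested Wnt target genes, by 0 of the 7 ligase relatives and of the 11 BMP genes, and by 1 gene of each other list (of 16 Frizzled and Lrp receptors, 12 Wnt ligand genes, 24 relay genes, 9 syndecans and glypicans, and 5 LGR partners), beside 3.87% of all genes. The first held Wnt target and feedback genes, led by Axin2, a negative regulator of the pathway and its most widely used readout. Axin2 had 1.64, 4.12 and 2.11 CPM in the wild-type and 1.83, 2.06 and 5.19 CPM in the knockout libraries, with overlapping groups and a log2 fold change of 0.21 (SE 0.57; edgeR adjusted p = 0.913). Of the 20 tested genes of the list, edgeR called 0 in either direction, and DESeq2 called 0 as well. There were 12 positive and 8 negative fold changes, with a median of 0.12 beside -0.05 over all genes. The members with the lowest p differed in sign: Nkd1, a feedback inhibitor that binds Dishevelled, averaged 2.38 ± 0.423 CPM (knockout) and 4.97 ± 1.76 CPM (wild type), Gadd45g 38.9 ± 9.30 against 84.6 ± 29.9 CPM, and Wisp2, a secreted matricellular protein, 44.8 ± 29.7 against 142 ± 38.5 CPM. Sox4, a transcription factor, averaged 202 ± 15.3 CPM (knockout) and 123 ± 54.8 CPM (wild type). These 4 of the 20 tested genes were the ones whose groups did not overlap, beside 10.6% of all genes tested. None of the 4 passed edgeR's test (adjusted p = 0.763 for each). The disrupted gene Stc1 had the same edgeR adjusted p, so this value does not show that levels did not differ.

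The Frizzled and Lrp receptors are what Znrf3 and Rnf43 remove from the membrane. Of 16 tested, 0 were called by edgeR or by DESeq2, with 6 positive and 10 negative fold changes and a median of -0.11. The co-receptor Lrp6 had 100, 139 and 169 CPM in the wild-type and 103, 98.9 and 109 CPM in the knockout libraries, which overlap. Fzd8 averaged 8.91 ± 1.05 CPM (knockout) and 15.1 ± 5.25 CPM (wild type), Fzd4 4.31 ± 1.07 against 8.72 ± 5.51 CPM and Ror1, a receptor for Wnt5a, 0.857 ± 0.419 against 5.06 ± 4.26 CPM. Wild-type replicate 1 lay within the knockout range for Ror1, so the groups overlapped. Those of Fzd8 and Fzd4 overlapped too, and 0 of the 16 genes had groups without overlap, beside 10.6% of all genes tested.

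Of the genes for Wnt ligands and their secretion, 12 of 21 were tested and 0 were called by edgeR or DESeq2, with 3 positive and 9 negative fold changes and a median of -0.28. Wnt5a, which acts mainly outside the beta-catenin branch, averaged 145 ± 68.3 CPM (knockout) and 118 ± 85.5 CPM (wild type), a log2 fold change of 0.30 (SE 0.64). Wnt2b had 3.67, 15.1 and 5.09 CPM in the wild-type and 1.88, 2.90 and 1.11 CPM in the knockout libraries, without overlap but with an edgeR adjusted p = 0.763, and wild-type replicate 2 was the highest, as for Lgr5. Wnt10b followed wild-type replicate 2 too, at 8.60 CPM there and 0.536 to 2.09 CPM elsewhere. Wnt9a averaged 15.5 ± 2.49 CPM (knockout) and 11.1 ± 4.86 CPM (wild type), with overlapping groups. Wnt2b was the 1 gene of the 12 tested whose groups did not overlap, beside 10.6% of all genes tested.

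All 24 genes of the intracellular relay from Dishevelled to the TCF factors were tested, and edgeR and DESeq2 called 0. Fold changes ran from -0.51 to 1.01 on the log2 scale, 17 positive and 7 negative, with a median of 0.10. Bcl9, a co-activator of beta-catenin, averaged 65.6 ± 12.3 CPM (knockout) and 43.1 ± 10.9 CPM (wild type), and Pygo2, its partner, 319 ± 29.6 against 232 ± 59.6 CPM. Tcf7l2, a transcription factor of the pathway, averaged 13.8 ± 2.63 against 19.6 ± 4.01 CPM, and Dvl1 106 ± 4.69 against 89.7 ± 8.02 CPM. None passed edgeR's test, with an adjusted p = 0.763 for each of the 4. The groups of Pygo2 overlapped, while those of Bcl9, Tcf7l2 and Dvl1 did not. In all, 5 of the 24 genes had groups without overlap, beside 10.6% of all genes tested.

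Heparan sulfate proteoglycans bind R-spondins at the cell surface, and Sdc4 is known from Xenopus as a receptor of Rspo3. Of 10 syndecans and glypicans 9 were tested, and edgeR and DESeq2 called 0, with a median log2 fold change of 0.11. Sdc4 itself had a log2 fold change of -0.11 (SE 0.35). Gpc1 averaged 336 ± 147 CPM (knockout) and 188 ± 35.9 CPM (wild type), Sdc1 279 ± 30.4 against 215 ± 22.0 CPM, and Gpc2 20.3 ± 5.48 against 14.3 ± 2.29 CPM. The groups of these 3 of the 9 genes did not overlap, beside 10.6% of all genes tested. Gpc3 had 70.0 CPM in wild-type replicate 2 and 1.60 to 21.9 CPM in the other libraries.

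Other ligands, partners and relatives of the LGR receptors gave the only member of the 8 pathway lists that DESeq2 called. Tnfsf11, the cytokine RANKL, which also binds Lgr4, had 3.09, 8.78 and 7.30 CPM in the wild-type and 33.5, 21.1 and 31.3 CPM in the knockout libraries (log2 fold change 2.16, SE 0.44; DESeq2 adjusted p = 0.00287, edgeR adjusted p = 0.763). Iqgap1, a scaffold that binds Lgr4, averaged 665 ± 41.7 CPM (knockout) and 858 ± 42.6 CPM (wild type), also without overlap, and was not called by edgeR or DESeq2. The relatives Rxfp1 and Tshr had 0.399 to 4.81 CPM, and Lhcgr and Fshr had no fragment in any library. Of the 8 genes 5 were tested, 2 with positive and 3 with negative fold changes. Tnfsf11 and Iqgap1 were the 2 of these 5 without overlap, beside 10.6% of all genes tested.

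Relatives of Znrf3 and Rnf43 with the same transmembrane and RING design had no positive fold change among the 7 tested of 10 (log2 -1.14 to -0.03, and 0.00 for Rnf149), and edgeR and DESeq2 called 0 of them. Rnf150 averaged 40.9 ± 4.48 CPM (knockout) and 90.1 ± 57.9 CPM (wild type), Rnf13 86.2 ± 13.6 against 143 ± 110 CPM and Rnf130 47.6 ± 14.6 against 88.1 ± 85.1 CPM. Wild-type replicate 3, the library with the most macrophage RNA, held the highest level of all 3 (154, 269 and 186 CPM), and the list median of -0.55 was 0.28 without it. The part of macrophage RNA was not tested. Rnf43, at 1.19, had the opposite sign, a difference that was not tested.

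Rspo2 and Rspo3 are known, from Xenopus embryos and human cells, to reduce BMP signalling through the receptor Bmpr1a. All 11 BMP receptor and target genes were tested and edgeR and DESeq2 called 0, with 4 positive and 7 negative fold changes and a median of -0.02. Bmpr1a had a log2 fold change of -0.02 (SE 0.21). The BMP targets Id1 and Id3 averaged 105 ± 12.6 and 290 ± 45.2 CPM (knockout) and 68.7 ± 41.0 and 227 ± 101 CPM (wild type), while Id2 averaged 90.5 ± 38.3 against 183 ± 200 CPM, with 414 CPM in wild-type replicate 3. All 3 had overlapping groups.

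**Figure D5:**
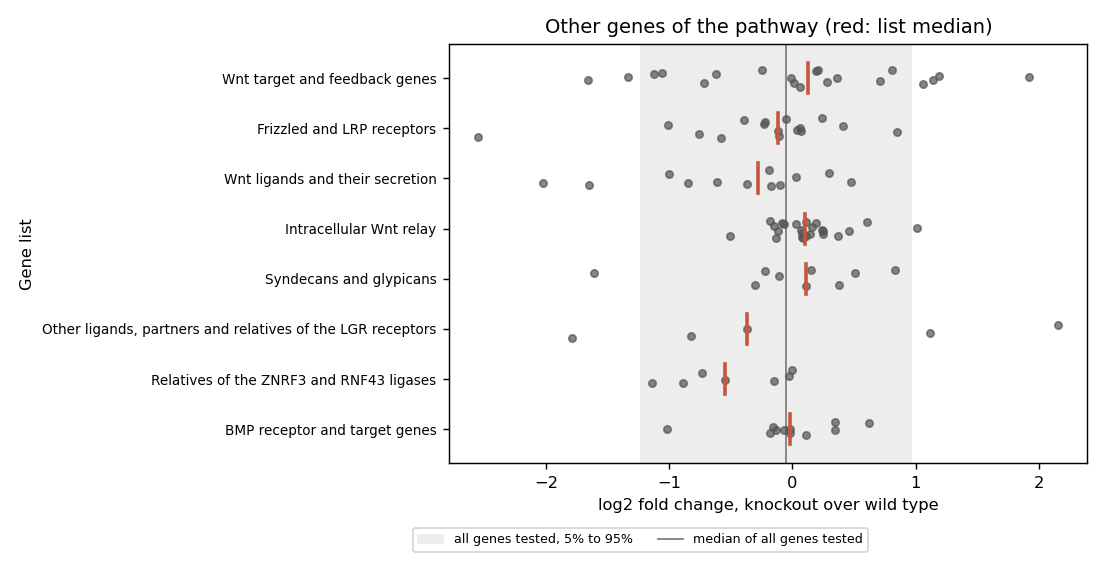
Fitted log2 fold change (knockout over wild type) of each tested gene of the 8 lists (grey points, spread vertically only to separate them), with the list median in red, the median of all genes tested as a grey line at -0.05 and their 5% to 95% range shaded. List medians run from -0.55 for the ligase relatives to 0.12 for Wnt target and feedback genes.

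The genes most like Rspo3 and Lgr4 in their pattern were listed by Pearson's r of log2 CPM over the 6 libraries, among the 11424 tested genes that reached a mean of 2 in log2 CPM. For Rspo3 they were Slc16a1 (r = 0.988), Ppp2r5e (0.981), the locus of Med24 and SNORD124 (0.972), Zfat (0.970) and Tle1 (0.968), and 46 genes in all had r above 0.9. Slc16a1, a monocarboxylate transporter, had 55.3, 56.2 and 49.7 CPM in the wild-type and 93.7, 77.6 and 127 CPM in the knockout libraries. For Lgr4 they were Cnn1 (r = 0.997), the locus of Ipo11 and Lrrc70 (0.995), Cep57l1 (0.995), Sept11 (0.994) and Anapc5 (0.994), and 601 genes had r above 0.9. Wild-type replicate 2 was the highest library for each of these 5 genes. With 6 libraries that differ in depth and in the levels of cell type markers, these values describe likeness only.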

How the data were processed

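Per the submitters' processing notes, CASAVA 1.8.2, TopHat2 2.0.6, Cuffdiff 2.0.1 and mm10 were used, with no role given. Per the file headers, the authors' files give an estimated count of fragments (expected counts) and an FPKM per locus; FPKM as deposited is scaled by length and across all 6 libraries. The authors' deposited comparison table gives mean FPKM, log2 fold changes and p-values and q-values. The deposited counts (24.2% of values above 0 not whole, tolerance 1e-06) were rounded. Loci without a gene name (2667, 0.507% to 0.555% of fragments) and 16 marked HIDATA were left out; 36812 remained. The fit used edgeR 4.0.16 (R 4.3.3) with TMM scaling, the filterByExpr filter and the robust quasi-likelihood F test (Benjamini-Hochberg adjusted p under 0.05; standard error from the log2 fold change and F). CPM use TMM effective sizes. The fit was tested on simulated data. Alternatives were DESeq2 1.42.0, limma 3.58.1 (voom, or log2(FPKM + 1) and log2(FPKM + 0.1)), RLE and upper quartile scaling, other filters, no FAIL loci, and each library left out; DESeq2 with libraries left out and the fit without macrophage-rich libraries were added after seeing the data. Replicate numbers only name libraries and pair none. Coding sequences and exon counts are from GENCODE M21. Members and lists were chosen with earlier results of these data known. Fzd7 is on 2 lists. Named were the 9 members, Stc1, Axin2, up to 4 genes per list with the lowest edgeR p, and the 5 genes most like Rspo3 and Lgr4. Outside this rule, chosen after their values were seen, are Wnt5a, Sdc4, Bmpr1a, Lhcgr, Fshr and the marker genes.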

Additional observations from a re-analysis of the deposited data

How the results depend on the processing

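No paired analysis was possible because the labels give no replicate numbers; those used here only name the libraries in the order of deposit. Over all genes, edgeR with TMM called 0 either way (607 at an unadjusted p under 0.05), as did each edgeR alternative and limma-voom, while DESeq2 called 29 higher and 32 lower and limma on log2(FPKM + 0.1) called 1 higher; the unadjusted count was 270 to 2939 with 1 library left out, the highest without wild-type replicate 1. With 1 library left out, DESeq2 called 0 to 3 of the 9 genes: 0 without knockout replicate 1 or 3, 1 without wild-type replicate 2 and 3 without wild-type replicate 1. Of all genes these fits called 11.6% without wild-type replicate 1, 0.544% without wild-type replicate 3 and 0.216% to 0.232% otherwise. Rspo3 and Rnf43 kept a positive and Lgr4, Lgr5 and Znrf3 a negative sign under all settings tried. The smallest sizes were 0.24 for Rnf43 and -0.84 for Lgr5 (both from limma on log2(FPKM + 1)), 1.0 for Rspo3 without knockout replicate 3, -0.32 for Lgr4 without wild-type replicate 2 and -0.11 for Znrf3 without the macrophage-rich libraries, a fit in which Rspo1, Rspo2, Rspo4 and Lgr6 changed sign. For the other ligands and partners of the LGR receptors, the median of -0.37 was -0.15 with DESeq2, which called 1 gene, -0.15 with limma on log2(FPKM + 1), -0.12 with no filter and 1.13 with at least 1 CPM in 3 libraries, where fewer genes are tested; it was -0.39 to 0.15 with 1 library left out. For the ligase relatives that range was -0.93 to 0.28, the latter without wild-type replicate 3. In the order of levels, Lgr6 over Znrf3 (-0.01) was 0.03 on log2(FPKM + 1) and -0.21 to 0.23 with 1 library left out. Lgr5 over Rspo4 (0.39) was -0.74 in CPM per kilobase of exon and -0.38 to 0.85, and Rspo4 over Rnf43 (-0.23) was 0.01 on log2(FPKM + 1), 0.76 per kilobase of exon and -0.68 to 0.09. The cause was not tested unless named. A count of 0 by edgeR does not show that levels did not differ, since edgeR did not call the disrupted gene Stc1 either (adjusted p = 0.763). At these depths, 3 fragments correspond to 0.0425 to 0.141 CPM, which limits Rspo1, Rspo4 and Lgr5.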

Other observations

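Knockout replicate 3, the library with the highest levels of Rspo3, Rspo1, Rnf43 and Axin2, also held the most RNA of 2 transcription factors of skeletal muscle precursors, genes chosen here after their values were seen. Pax3 had 2.58, 0.586 and 2.63 CPM in the wild-type libraries and 2.35, 7.27 and 24.1 CPM in the knockout libraries. Pax7 had 7.81 CPM in knockout replicate 3 and at most 0.134 CPM in every other library. The other markers of that list did not follow. Myf5 was at 0 in all 6 libraries. Myod1 was at 0 and Myog at 0.0222 CPM in knockout replicate 3, and neither exceeded 0.0468 CPM in any library. Without knockout replicate 3 the log2 fold change of Rspo3 was 1.0 and that of Rnf43 was 0.94.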
